A study of Mus musculus with 8 samples.

Results

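The 40 genes described here encode the core machinery of DNA replication in the mouse, from the proteins that mark origins to those that join the finished strands and supply deoxynucleotides. They were chosen by gene symbol from a fixed list, and all 40 were found among the 19950 genes of the table. The samples were whole embryos at embryonic day 6.5, close to the onset of gastrulation. The compared genotypes were Axin1;Axin2 mutant (4 embryos, replicates 1, 2, 4 and 5) and WT (4 embryos, replicates 1, 2, 4 and 5), with 1 library per embryo and no treatment named in the labels. The study asks how the Axin genes shape WNT signalling and mesoderm programs. The labels give neither the alleles nor the strain, litter or stage of each embryo, so the p-values reflect the spread among these 8 embryos only.

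Replication begins when the origin recognition complex, with Cdc6 and Cdt1, loads the MCM helicase as a ring of related subunits onto DNA in G1 phase. In S phase the helicase is switched on by Cdc45 and the GINS complex, DNA polymerase alpha with primase starts each strand, and DNA polymerases delta and epsilon extend them on the sliding clamp PCNA. Epiblast cells of the mouse embryo divide very quickly around gastrulation, and many genes of this machinery are transcribed under E2F factors at the passage from G1 to S phase.

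Reads assigned to genes ranged from 26615732 to 36778164 per library, and values are scaled counts, the authors' read counts divided by a size factor for each library. Axin1 had a scaled count of 1721.5, 1984.5, 2203 and 2074 in mutant replicates 1, 2, 4 and 5 and 5274, 5139.7, 2963 and 4884 in WT replicates 1, 2, 4 and 5, and fell (limma log2 fold change -1.16, SE 0.18, adjusted p = 0.00269), whereas Axin2 did not pass (log2 fold change 0.44, adjusted p = 0.19). Markers of the epiblast, 10 genes, were lower in the mutants in 10 of 10 cases, and their summed scaled count was 30031 to 44493 in the mutants, against 132539 to 143983 in WT. A list of 11 maternal decidua markers, for the uterine tissue around the embryo, summed to 17117, 5763, 47255 and 26334 in mutant replicates 1, 2, 4 and 5. In WT replicates 1, 2, 4 and 5 the sums were 2421, 2212, 683 and 644. Of the 10 tested, 6 were higher (Des, Col1a1, Col1a2, Col3a1, Acta2 and Pgr). Prl8a2, Dcn, Igfbp7 and Cryab did not pass (limma adjusted p = 0.299, 0.425, 0.199 and 0.249). In mutant replicate 1, Des (7413) and Col1a1 (7837) made up most of the sum, and Prl8a2 was at 134.7, against 1129 in WT replicate 1. Whether the transcripts of this list came from decidua or from the embryo was not tested. Lum, a decidual matrix gene, was at 0 in the 4 WT libraries and in mutant replicate 1. Y-linked transcripts were present in the 4 mutant libraries and in WT replicates 1 and 4, and nearly absent in WT replicates 2 and 5.

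Part of the replication machinery had modestly lower transcript levels in the mutants. Among the 40 genes, 8 fell and 0 rose at an adjusted p under 0.05 with limma, which is 20% lower against a background of 7.55% of the 15600 tested genes lower and 8.03% higher. The 8 were Orc1 and Orc3 of the origin recognition complex, the helicase subunits Mcm2, Mcm3 and Mcm5, both non-primase subunits of DNA polymerase alpha (Pola1 and Pola2), and Rpa2, a subunit of the single-strand binding protein RPA. Their log2 fold changes lay between -0.39 for Pola1 and -0.25 for Mcm5, which correspond to 76.2% to 83.8% of the WT level. Leaving out mutant replicate 4 or 5 gave 5 or 3 lower members of the 40, against 6.28% or 5.96% of tested genes lower. Leaving out WT replicate 1, 4 or 5 gave 3, 2 or 4, against 4.48%, 4.51% or 5.01%. Leaving out mutant replicate 1 gave 8 lower members, against 7.43% of tested genes lower. Of them 6 were among the 8 named above, with Orc1 and Orc3 no longer called and Mcm7 and Pold1 called.

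Which of the 8 genes passed depended on the libraries and on the use of the decidua marker list in the model. With the mean log2 value of the decidua markers as a covariate 0 members passed in either direction, against 1.49% of tested genes lower. The 8 genes then had log2 fold changes of -0.35 for Rpa2, -0.32 for Pola1 and -0.21 to -0.094 for the other 6. Summed scaled counts of these markers were higher in every mutant (5763 to 47255) than in every WT library (644 to 2421). Genotype and this covariate can therefore not be told apart in this fit. In the 6 libraries with Y-linked transcripts Pola1 alone passed, against 2.98% of tested genes lower. There the log2 fold changes were -0.45 to -0.26 over the 8 genes. Without mutant replicates 4 and 5 together 2 members were lower, against 4.82% of tested genes. The epiblast markers were lower in the same 4 mutant libraries, and their part in the result was not tested.

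The log2 fold change was below 0 for 32 of 40 members (80%), against 50.2% of all tested genes. In the 4 related lists described below, this share was 75.6% for other replication genes and 75% for mitotic genes. It was also 75% for checkpoint and fork repair genes, and 42.3% for regulators of G1 to S phase. The members' median was -0.15, against -0.0018 over all tested genes. Centring each library on the median of its tested genes moved the median log2 fold change of all tested genes itself to -0.087. With that centring 39 of 40 members were below 0, and 12 members passed as lower. Of all tested genes 1590 were then lower (10.2%) and 1029 higher (6.6%). Thus 39.3% of calls were higher, against 51.5% with the authors' scaling (1178 lower, 1253 higher). In 13 members every mutant library lay under every WT library, which occurred in this direction for 11.2% of tested genes, and in 0 members did the mutants lie wholly above WT. Of those 13, Orc4, Cdc6, Mcm7, Rfc1 and Rpa1 did not pass the test. Without adjustment for the number of genes, limma gave 17 members lower and 0 higher at p under 0.05, where 14.6% of all tested genes were lower and 14.9% higher. On recovered reads, edgeR gave 8 lower and 0 higher, against 7.49% of genes lower and 8.08% higher, and DESeq2 gave 12 lower and 0 higher, against 10.3% lower and 11.8% higher. These are changes in the RNA of whole embryos, in which fewer cells of a type and less RNA per cell cannot be told apart.

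**Figure D1:**
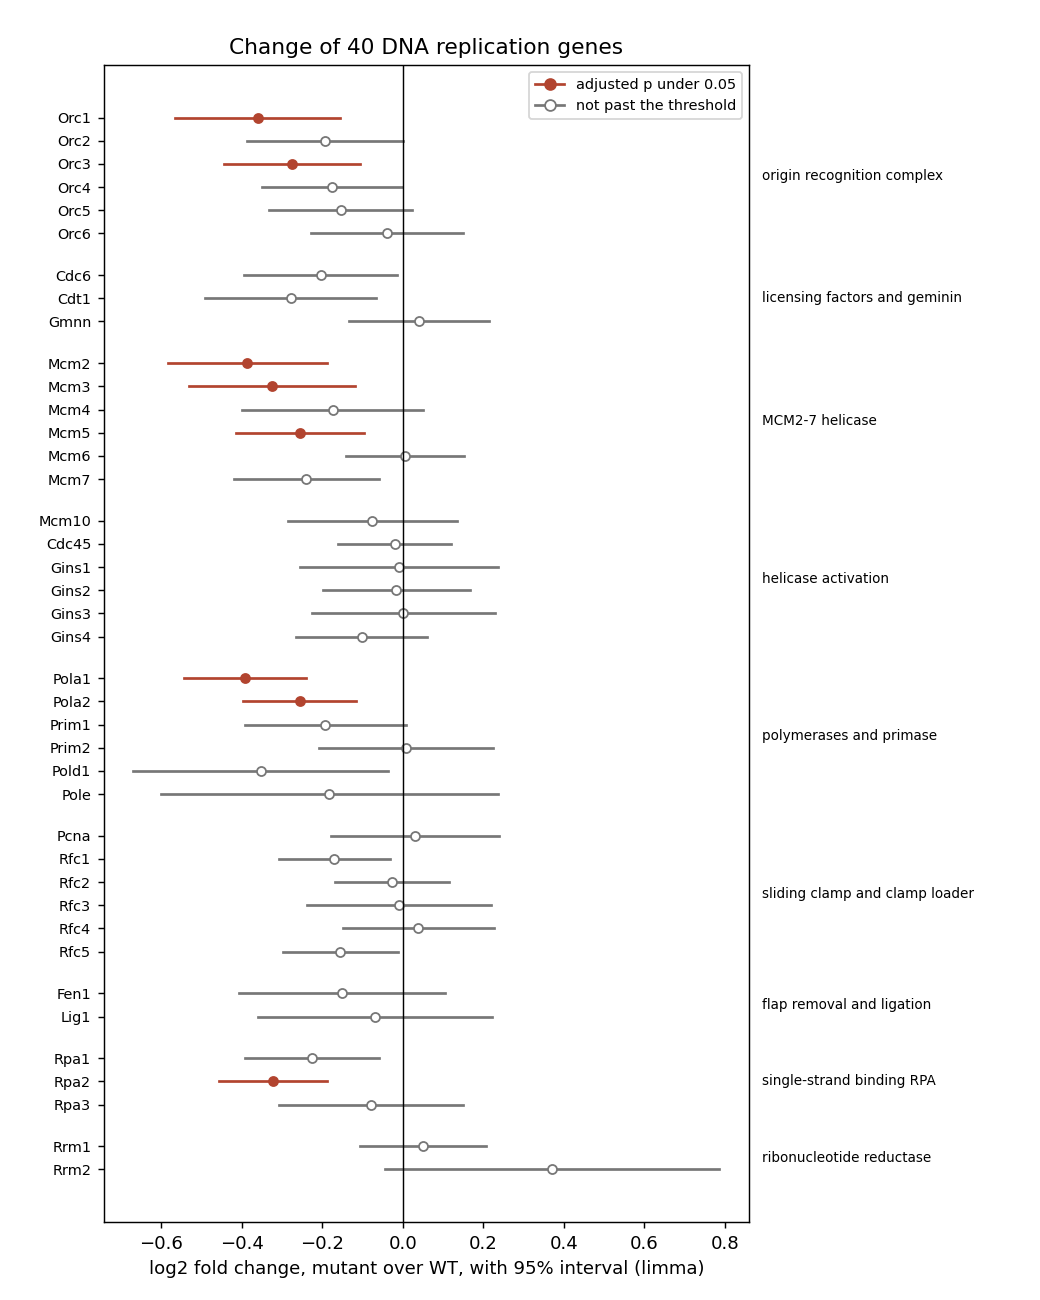
Log2 fold change of mutant over WT for each of the 40 genes with its 95% interval from limma, in blocks by role from origin recognition at the top to ribonucleotide reductase at the bottom. The 8 filled red points, at an adjusted p under 0.05, all lie left of 0, and Rrm2 has the widest distance to the right of 0, with an interval that reaches below it.

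Promoters of these genes were searched for the E2F site letters TTTCCCGC and TTTGGCGC on both strands, from 250 bases before to 50 bases after the RefSeq start (GRCm38.p6). Of the 40 members 32 had a promoter in the RefSeq table, and 11 of the 32 (34.4%) held a match, against 486 of 27025 genes with a promoter there (1.8%). Among members that fell, 4 of 8 held a match (Mcm3, Mcm5, Orc3 and Pola1), and among the other members with a promoter 7 of 24 did (Cdc6, Cdt1, Gins3, Mcm6, Mcm7, Pold1 and Rfc3). A match to these letters was thus found both in genes that fell and in genes such as Mcm6 and Gins3 whose means hardly differed between genotypes. The 170 bases before the start are printed 5′ to 3′ on the gene's strand for the 3 lower genes with a match there and for Mcm6, which held 2 matches, and capitals mark the matches on either strand, which overlap in none of the 11 genes.
Pola1, chrX:93632156-93632325, minus strand: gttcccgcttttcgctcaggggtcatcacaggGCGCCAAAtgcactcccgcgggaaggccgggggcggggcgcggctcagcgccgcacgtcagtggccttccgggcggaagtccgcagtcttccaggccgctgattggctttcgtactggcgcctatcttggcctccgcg
Mcm5, chr8:75109339-75109508, plus strand: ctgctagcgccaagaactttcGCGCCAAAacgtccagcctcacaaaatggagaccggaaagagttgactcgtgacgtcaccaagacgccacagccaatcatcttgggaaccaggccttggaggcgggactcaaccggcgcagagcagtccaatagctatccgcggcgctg
Orc3, chr4:34614943-34615112, minus strand: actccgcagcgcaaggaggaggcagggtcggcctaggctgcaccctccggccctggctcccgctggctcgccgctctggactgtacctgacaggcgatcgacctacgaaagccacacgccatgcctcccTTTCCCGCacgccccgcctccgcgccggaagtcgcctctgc
Mcm6, chr1:128359706-128359875, minus strand: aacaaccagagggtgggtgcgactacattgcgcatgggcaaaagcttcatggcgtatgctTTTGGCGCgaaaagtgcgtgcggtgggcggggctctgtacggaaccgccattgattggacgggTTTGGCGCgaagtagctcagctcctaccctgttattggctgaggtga
Counted from the start, the Pola1 match spans positions -138 to -131, the Mcm5 match -149 to -142, the Orc3 match -41 to -34, and the Mcm6 matches -110 to -103 and -47 to -40. In Pola1 and Mcm5 the letters read GCGCCAAA, the reverse complement of TTTGGCGC. A match is a description of the sequence and was not tested for binding.

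The 6 subunits of the origin recognition complex, which binds origins and recruits the loaders, had log2 fold changes below 0 in 6 of 6 cases, with a median of -0.18. Of these, 2 passed the test as lower (33.3%), against 7.55% of all tested genes. Orc1 (chromosome 4, 108579423 to 108614833, plus strand, GRCm38), an ATPase subunit, had a scaled count of 3075, 4036, 3332 and 3249 in mutant replicates 1, 2, 4 and 5, against 4226, 4119.5, 4642 and 4516 in WT replicates 1, 2, 4 and 5. Mutant replicate 2 sat just under the lowest WT library and the other mutants well below it. Orc1 fell (log2 fold change -0.36, SE 0.091, limma adjusted p = 0.027), to 3423 ± 423 in the mutants, against 4376 ± 244 in WT (SD, n = 4 each). Orc3 (chromosome 4, 34570796 to 34614944, minus strand), a structural subunit, had 4168, 5088, 4495 and 4795.5 in the mutants, against 5565, 5302, 5546 and 6001 in WT. The genotypes did not overlap, again with mutant replicate 2 nearest to WT, and Orc3 fell (log2 fold change -0.28, SE 0.075, adjusted p = 0.036).

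Orc4, another subunit of the ATPase core, had 2987, 3362, 3168 and 3106 in the mutants, against 3404, 3413, 3414 and 4052 in WT. Its genotypes did not overlap, but the gap was 42.2 and its log2 fold change of -0.18 did not pass (adjusted p = 0.165). Orc2 (log2 fold change -0.19, adjusted p = 0.168) and Orc5 (-0.15, adjusted p = 0.231) overlapped between genotypes. Orc6, the smallest subunit, had the value nearest 0 (-0.039, 95% interval -0.23 to 0.15). The library kit does not keep strand, and exons share bases with genes on the opposite strand in Orc1 (10.8%, with Gm12743), Orc2 (29.8%, with Nif3l1), Orc4 (7.8%) and Orc6 (6.9%). Of the 8 lower members only Orc1 had such an overlap.

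The loaders and their inhibitor gave no call with limma (0 of 3) or edgeR (0 of 3), while without adjustment limma gave 2 lower and DESeq2 gave 1 lower. The shares of all tested genes lower were 14.6% with unadjusted limma and 10.3% with DESeq2. Cdt1, which brings the MCM ring to origins, had 3738, 3894, 2986 and 3458 in the mutants, against 4284, 4593, 4316 and 3833 in WT, and missed the threshold (log2 fold change -0.28, 95% interval -0.49 to -0.065, adjusted p = 0.0806). Mutant replicate 2 lay just above the lowest WT library, replicate 5, and the other mutants lay under all WT libraries. Cdc6, the ATPase that works with it, had 5272, 5275, 4210.1 and 4930.4 in the mutants, against 5409, 6134, 5592 and 5466 in WT, with no overlap and a log2 fold change of -0.20 (adjusted p = 0.143). Gmnn encodes geminin, the protein that holds Cdt1 back after S phase begins, and had 2843, 2916, 3506 and 2961 in the mutants, against 3038, 2988, 2917 and 2901.5 in WT. Its mutant values bracketed those of WT, with mutant replicate 4 highest (log2 fold change 0.041, 95% interval -0.13 to 0.21). The ratio of Cdt1 to Gmnn within a library was 1.31, 1.34, 0.852 and 1.17 in the mutants and 1.41, 1.54, 1.48 and 1.32 in WT, with mutant replicate 4 the lowest and overlap between genotypes.

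Of the 6 subunits of the helicase ring, 3 fell and 0 rose with limma or edgeR, and DESeq2 gave 4 lower and 0 higher. The shares of all tested genes lower were 7.55% with limma, 7.49% with edgeR and 10.3% with DESeq2. Mcm2 (chromosome 6, 88883474 to 88898780, minus strand) had 22023, 21003.5, 17018.5 and 21004 in the mutants, against 26225, 25491, 29051 and 24823 in WT. The highest mutant lay 2800.1 below the lowest WT library, with mutant replicate 4 lowest of all. Mcm2 fell by 0.39 on the log2 scale (SE 0.088, limma adjusted p = 0.0177), with means of 20262 ± 2215 in the mutants and 26397.5 ± 1859.6 in WT (SD, n = 4 each).

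Mcm3 (chromosome 1, 20802968 to 20820312, minus strand) had 13328, 13294, 10538 and 11712 in the mutants, against 17047, 14017, 15019.9 and 14994 in WT. It fell as well (log2 fold change -0.32, SE 0.091, adjusted p = 0.0408), and the genotypes were separate, with WT replicate 2 nearest to the mutants. Mcm5 (chromosome 8, 75109569 to 75128439, plus strand), which in yeast forms with Mcm2 the gate through which DNA enters the ring, had 20246, 19707, 16681 and 19989 in the mutants, against 22619, 23917, 23058 and 21605 in WT. Mutant replicates 1, 2 and 5 were alike and mutant replicate 4 stood below them, and Mcm5 fell (log2 fold change -0.25, SE 0.071, adjusted p = 0.0399).

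The other 3 subunits did not pass. Mcm7 had 17106, 15798, 13053 and 14929.5 in the mutants, against 18483, 17756, 18120.2 and 17218 in WT, with no overlap and an adjusted p of 0.0754 (log2 fold change -0.24). Its exons also hold Mir25 and Mir93, and 8.7% of their bases are shared with genes on the opposite strand. Mcm4 had 16274.5, 17053, 12597.5 and 16297.5 in the mutants, against 18329, 17506, 18345 and 15696 in WT, with WT replicate 5 among the mutants (log2 fold change -0.17, adjusted p = 0.284).

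Mcm6 (chromosome 1, 128331590 to 128359664, minus strand) was the exception within the ring. It had 22901, 22760.5, 20259 and 21259 in the mutants, against 22641, 19939, 23085 and 21208 in WT, so the genotypes were interleaved, with a log2 fold change of 0.0056 and a 95% interval of -0.14 to 0.15. Since the intact ring holds each subunit in equal number, counts were also divided by that of Mcm6 in the same library, which removes the library scaling, a measure chosen after the values were seen and given without a test. The ratio of Mcm2 to Mcm6 was 0.962, 0.923, 0.84 and 0.988 in mutant replicates 1, 2, 4 and 5 and 1.16, 1.28, 1.26 and 1.17 in WT replicates 1, 2, 4 and 5. For Mcm3 it was 0.582, 0.584, 0.52 and 0.551 in the mutants and 0.753, 0.703, 0.651 and 0.707 in WT. The ratios of Mcm2, Mcm3, Mcm5 and Mcm7 to Mcm6 were lower in each mutant library than in each WT library, and that of Mcm4 overlapped.

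**Figure D2:**
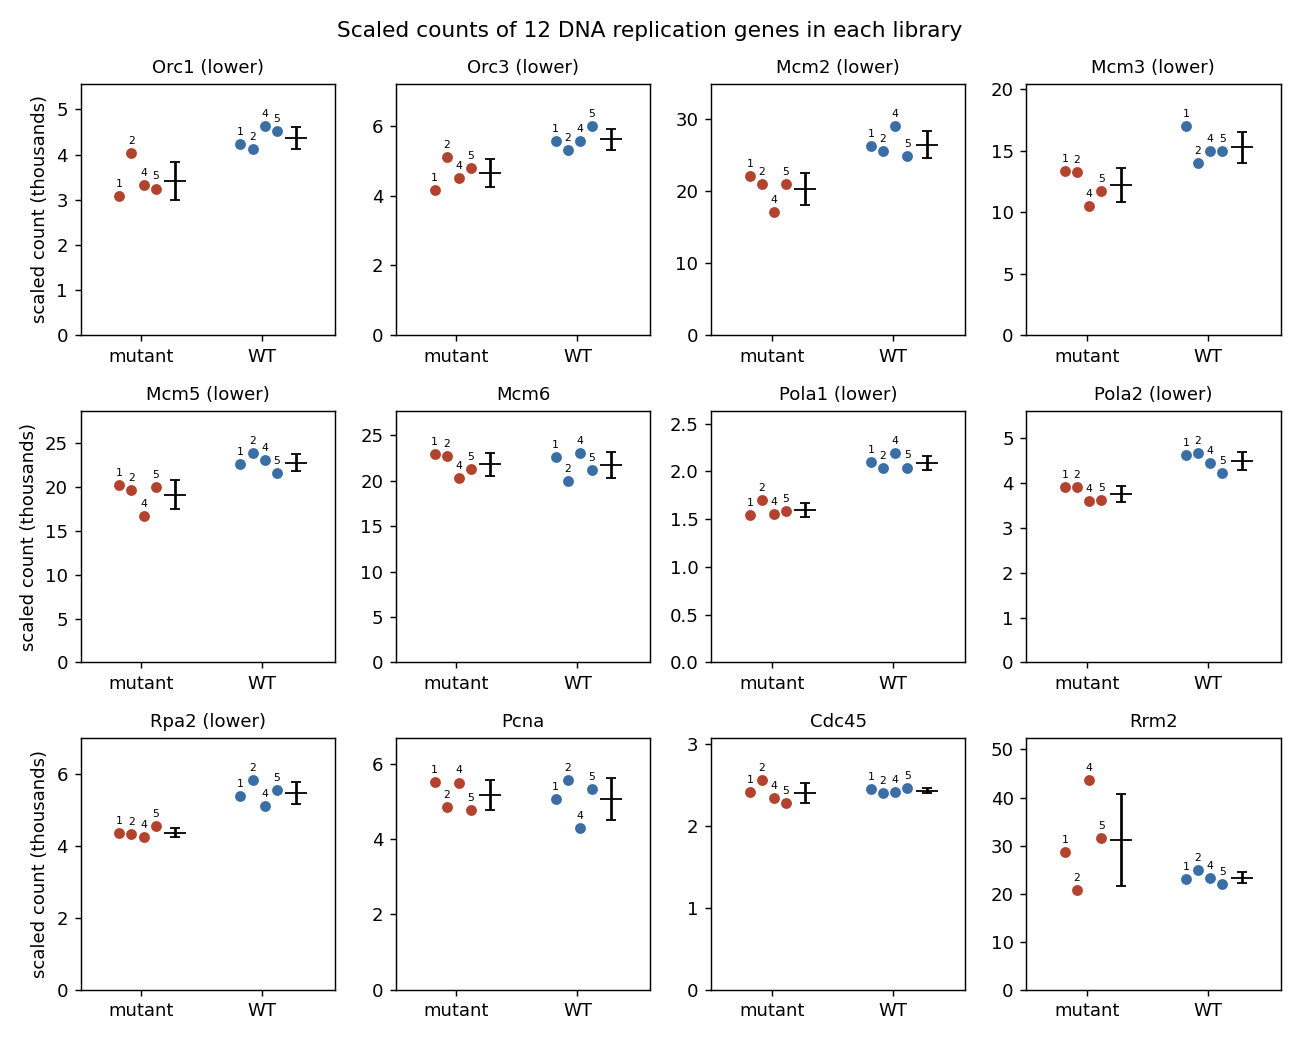
Scaled counts (axis in units of 1000) for 12 replication genes, with mutant libraries in red on the left and WT libraries in blue on the right of each panel, numbers giving the replicate and bars the mean ± SD of 4. The panels marked lower passed the test, and in these 8 the red and blue points do not overlap, whereas Mcm6, Pcna, Cdc45 and Rrm2 overlap.

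The genes whose products convert the loaded ring into a moving helicase gave no call, with a median log2 fold change of -0.018. By limma, edgeR or DESeq2 0 of 6 passed, and 0 had an unadjusted limma p under 0.05. Of all tested genes, 7.55%, 7.49% and 10.3% were lower with these tools, and 14.6% with unadjusted limma. Cdc45, the helicase cofactor, had 2417, 2561, 2341 and 2275.5 in the mutants, against 2449, 2403, 2412 and 2456 in WT. Its WT values were close together, the mutants lay on both sides of them, and the 95% interval of the log2 fold change was -0.16 to 0.12. The GINS subunits Gins1, Gins2, Gins3 and Gins4 had log2 fold changes of -0.0084, -0.016, 0.0015 and -0.10, the widest 95% interval being that of Gins1 (-0.25 to 0.24). Mcm10, which helps to activate the helicase, ranged over 5411 to 7213 in the mutants and 6109.7 to 7195.5 in WT (log2 fold change -0.076, adjusted p = 0.643). Decreases of the size seen for Mcm2 lie outside the intervals of all 6 genes, but smaller ones do not. In Gins2, 67.3% of exon bases are shared with Gse1 on the opposite strand, so its value may hold reads of Gse1 or miss reads of Gins2.

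DNA polymerase alpha, which lays down the first deoxynucleotides of each strand, was lower in both of its own subunits. The catalytic subunit gene Pola1 (chromosome X, 93304767 to 93632155, minus strand) had 1539, 1698, 1549 and 1587.5 in the mutants, against 2096, 2033, 2194 and 2039.7 in WT. The values were tight within each genotype, the highest mutant being 334.7 below the lowest WT library. Pola1 fell (log2 fold change -0.39, SE 0.067, 95% interval -0.54 to -0.24, limma adjusted p = 0.00497), with 1593 ± 72.8 in the mutants and 2091 ± 74.6 in WT (SD, n = 4 each), which was the largest log2 decrease of the 40 genes over all 8 libraries. Pola1 is X-linked, and the WT libraries without Y-linked transcripts, replicates 2 and 5, had 2033 and 2040, against 2096 and 2194 in WT replicates 1 and 4. With the 6 libraries that had Y-linked transcripts its decrease was at least as large (log2 fold change -0.43, adjusted p = 0.0379).

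Pola2 (chromosome 19, 5940542 to 5964202, minus strand), the accessory subunit, had 3920.2, 3910.1, 3592 and 3623 in the mutants, against 4630, 4674, 4449 and 4215.5 in WT. It fell without overlap (log2 fold change -0.26, SE 0.062, adjusted p = 0.024). The primase genes that partner them did not pass. Prim1, the catalytic primase, had 2177, 2555, 2274 and 2366 in the mutants, against 2612, 3042.5, 2384 and 2693 in WT (log2 fold change -0.19, adjusted p = 0.187). Prim2, the large primase subunit, had 1529, 1475, 1621 and 1221 in the mutants, against 1456, 1491, 1424 and 1413 in WT, and its WT libraries lay inside the mutant range (log2 fold change 0.0076, 95% interval -0.21 to 0.22). Within a library, the ratio of Pola1 to Prim2 was 1.01, 1.15, 0.955 and 1.3 in the mutants and 1.44, 1.36, 1.54 and 1.44 in WT, and that of Pola2 to Prim2 was also lower in each mutant library than in each WT library, a comparison made after seeing the values and not tested.

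Pold1, the catalytic subunit of DNA polymerase delta, varied more. It had 6881, 5826, 4269 and 5435.5 in the mutants, against 7726, 6111, 7752 and 6762 in WT, with mutant replicate 4 far below the rest and mutant replicate 1 within the WT range. Its log2 fold change of -0.35 was near that of Mcm2 but its 95% interval ran over -0.67 to -0.036, and it did not pass (adjusted p = 0.128). Pole, the catalytic subunit of DNA polymerase epsilon, had 2849, 2459, 1664.5 and 2447 in the mutants, against 2942, 2227, 3285 and 2197 in WT, and was the most variable member within WT, with a coefficient of variation of 20.2% (log2 fold change -0.18, 95% interval -0.60 to 0.24).

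Of the 6 genes of the sliding clamp and its loader, 0 passed with limma or edgeR. Without adjustment limma gave 2 lower and 0 higher, and DESeq2 gave 1 lower and 0 higher, against 14.6% and 10.3% of all tested genes lower. Pcna, the sliding clamp that tethers the polymerases, had 5521, 4859, 5507 and 4778 in the mutants, against 5068, 5576, 4297.5 and 5342 in WT. The ranges overlapped almost wholly (log2 fold change 0.03, 95% interval -0.18 to 0.24). Rfc1, the large subunit of the clamp loader, had 4814, 4412, 4543 and 4587.5 in the mutants, against 4937, 5176, 5578 and 4979 in WT, a small gap with no overlap that did not pass (log2 fold change -0.17, adjusted p = 0.0954). Among the small loader subunits, Rfc5 had a log2 fold change of -0.15 (adjusted p = 0.138), and Rfc2, Rfc3 and Rfc4 had -0.027, -0.0088 and 0.039. Exon bases shared with a gene on the opposite strand made up 15.1% in Rfc2, 12.7% in Rfc4 and 10.7% in Rfc5.

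Fen1, the nuclease that trims Okazaki fragments, had 558, 506, 448 and 478 in the mutants, against 601, 575, 505 and 527 in WT (log2 fold change -0.15, adjusted p = 0.421). Of its exon bases 84.2% are shared with Tmem258 and Gm10143 on the opposite strand. The value may thus hold reads of those genes or miss reads of Fen1, and cannot be assigned to Fen1 alone. Lig1, the ligase that seals the fragments, had 6863, 5062, 4464 and 5149.8 in the mutants, against 6227, 4989, 5849.8 and 5314 in WT, with mutant replicate 1 the highest library and mutant replicate 4 the lowest (log2 fold change -0.068). Neither gene passed with limma, edgeR or DESeq2, nor at an unadjusted p under 0.05.

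RPA coats single-stranded DNA at the fork, and its middle subunit gene Rpa2 (chromosome 4, 132768332 to 132778752, plus strand) had 4351, 4337, 4256 and 4559 in the mutants, against 5393, 5841, 5118 and 5551 in WT. The 4 mutant values were the closest to each other of any member, with a coefficient of variation of 2.95%, and all lay under WT. Rpa2 fell (log2 fold change -0.32, SE 0.06, limma adjusted p = 0.00707), with 4376 ± 129 in the mutants and 5475.5 ± 302 in WT (SD, n = 4 each). Rpa1, the large subunit, had 9150.4, 8799.9, 7386 and 8583 in the mutants, against 10413, 9834, 9909 and 9379 in WT, with no overlap and an adjusted p of 0.0726 (log2 fold change -0.22). Rpa3, the smallest subunit, had 812 to 1069.5 in the mutants and 936 to 1037 in WT and a log2 fold change of -0.079 (adjusted p = 0.659).

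Ribonucleotide reductase makes deoxynucleotides, and it was the role group with 0 of its 2 members below a log2 fold change of 0, although Rrm1 came to -0.035 when each library was centred on its median. Rrm2, the small subunit whose level follows S phase, had 28625.5, 20737, 43666 and 31634 in mutant replicates 1, 2, 4 and 5, against 23099, 24809, 23165 and 22061 in WT replicates 1, 2, 4 and 5. Mutant replicates 1, 4 and 5 were above all WT libraries and mutant replicate 2 was below them, and the coefficient of variation was 30.5% in the mutants, against 4.88% in WT. The log2 fold change of 0.37 did not pass (95% interval -0.044 to 0.79, adjusted p = 0.218), and it depended on the libraries and the model. Without mutant replicate 2 it was 0.55 and passed (adjusted p = 0.027), without mutant replicate 4 it was 0.19, without mutant replicates 4 and 5 together it was 0.067, and with the decidua covariate it turned to -0.34 (adjusted p = 0.371). Rrm1, the large subunit, had 14019.7, 13379, 16374 and 14129 in the mutants, against 13607, 13368, 14424 and 14408 in WT (log2 fold change 0.05, adjusted p = 0.688). The ratio of Rrm2 to Rrm1 was 2.04, 1.55, 2.67 and 2.24 in the mutants and 1.7, 1.86, 1.61 and 1.53 in WT, with mutant replicate 2 inside the WT range.

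Across libraries the members did not shift by a common amount. The number of the 40 members below their WT mean was 27, 34, 26 and 36 in mutant replicates 1, 2, 4 and 5, against 21, 16, 22 and 25 in WT replicates 1, 2, 4 and 5. The WT libraries themselves form this mean, and such counts were not made over all tested genes. The median member stood at 93.2%, 92.4%, 88.3% and 90.8% of its WT mean in the mutants, against 99.6%, 101%, 99.1% and 97.6% in WT. All 40 together made up 0.858%, 0.816%, 0.846% and 0.834% of the scaled counts in the mutants, against 0.869% to 0.903% in WT.

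The mutants differed from each other in which genes were low. Mutant replicate 4 was the lowest of the 8 libraries for 15 members and the highest for 7, and spanned 60.2% of the WT mean for Pold1 to 188% for Rrm2. Its MCM subunits had a median of 72.5% of the WT mean, against 91.0%, 87.7% and 85.6% in mutant replicates 1, 2 and 5. Mutant replicate 1 was the lowest library for 12 members, and its origin recognition subunits had a median of 80.7%, against 93.6%, 89.9% and 86.3% in mutant replicates 2, 4 and 5. Mutant replicate 4 also had the highest sum of the decidua marker list (47255) and mutant replicate 2 the lowest among mutants (5763). Mutant replicate 1 had the lowest sum of the epiblast markers (30031). How often each library was lowest or highest over all tested genes was not counted. Over the whole table, recovered reads of mutant replicate 4 differed most from mutant replicates 1 and 2 (chi-square per degree of freedom 71.1 and 75.3). The other pairs of mutants, replicates 4 and 5 included, had 30.2 to 47.8.

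**Figure D3:**
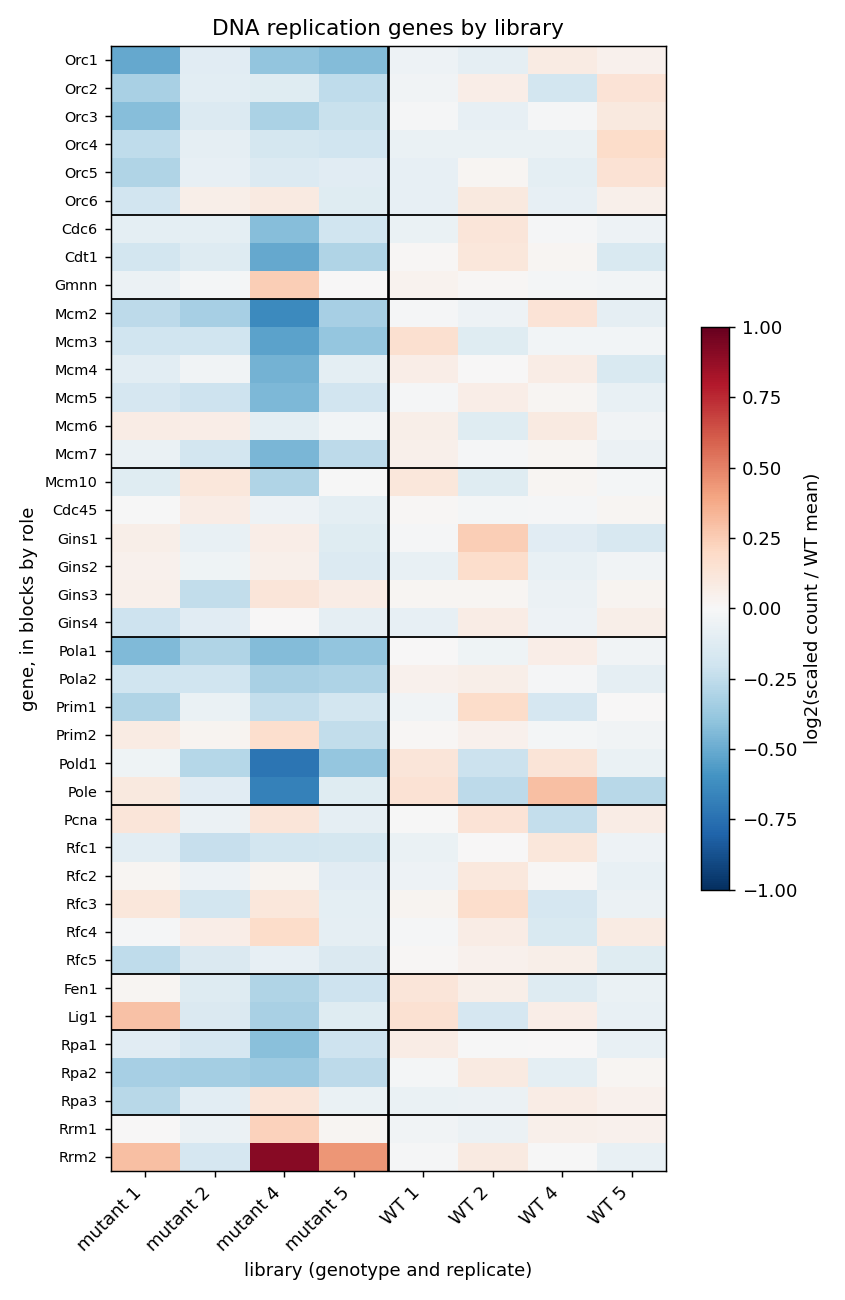
Scaled count of each of the 40 genes in each library relative to the mean of the 4 WT libraries, on a log2 colour scale with blue for lower and red for higher, mutant libraries left of the vertical line and WT right of it. Mutant replicate 4 combines the strongest blue, at Pold1, Pole and the MCM genes, with the strongest red, at Rrm2, and the origin recognition genes at the top are bluest in mutant replicate 1.

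Transcript levels per kilobase of exon placed the members far apart. On this scale, scaled counts divided by the union of GENCODE M21 exon lengths, Rrm2 was the most abundant in both genotypes (11247 ± 3434 per kb in the mutants and 8403 ± 410 per kb in WT, SD, n = 4 each). The 6 MCM genes came next, from 2913 to 4797 per kb in the mutants and 3795 to 5710 per kb in WT, and Pcna and Gmnn followed at 2153 and 2086 per kb in the mutants and 2113 and 2021 per kb in WT, values closer than their spread. At the low end, Pola1 had 181 ± 8.3 per kb in the mutants and 237 ± 8.5 per kb in WT, with Fen1, Pole and Prim2 close to it in both genotypes. The level of Fen1 is uncertain, as 84.2% of its exon bases are shared with genes on the opposite strand. The order within the MCM ring depended on the length used, since Mcm5 was highest in WT over exon unions and Mcm2 over the longest transcripts.

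**Figure D4:**
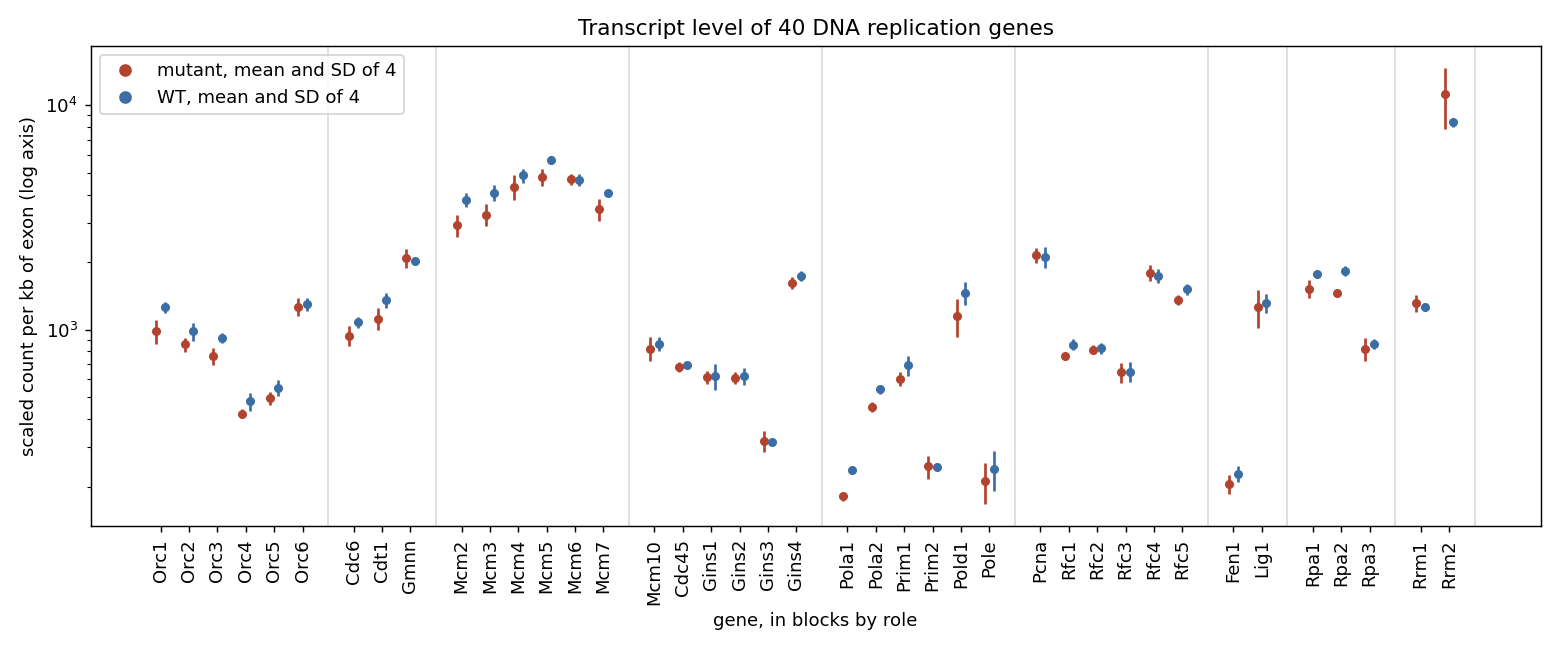
Level of each gene as scaled count per kilobase of exon on a log axis, in blocks by role, with the mutant mean in red left of the WT mean in blue and bars of ± SD over 4 libraries. Rrm2 and the MCM genes are at the top of the range, and Pola1, Pole, Prim2 and Fen1 are at the bottom. The level of Fen1 is uncertain, as 84.2% of its exon bases are shared with other genes.

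Genes that act around the core machinery were read from 4 further lists. Other replication genes, 41 in number, had 3 lower and 1 higher and a median log2 fold change of -0.14. The 7.32% that were lower is near the 7.55% of all tested genes. Dut, the dUTPase that keeps uracil out of DNA, had 4927.5, 5445, 5518 and 5193 in the mutants, against 7728, 7341, 7256 and 7272 in WT. The genotypes were widely separated, and Dut fell more than any of the 40 members (log2 fold change -0.49, SE 0.057, limma adjusted p = 0.000724). Chaf1b, a subunit of the chromatin assembly factor that places histones behind the fork, had 3139, 3027, 2798 and 3219.5 in the mutants, against 4258, 4575, 4295 and 4020.1 in WT, and fell (log2 fold change -0.49, SE 0.069, adjusted p = 0.00171). Dtl, part of the ligase that destroys Cdt1 on loaded PCNA, fell too (log2 fold change -0.34, adjusted p = 0.0328). Pold4, the small accessory subunit of DNA polymerase delta, had 130.4, 108, 297.5 and 175 in the mutants, against 51, 79.6, 76.2 and 86.4 in WT, and was the gene that rose (log2 fold change 1.18, adjusted p = 0.0402), with its highest value in mutant replicate 4.

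Regulators of the step from G1 to S phase moved in both directions, with 4 higher and 4 lower of 26 (15.4% lower) and a median of 0.039. Of all tested genes, 7.55% were lower and 8.03% higher. Cdkn1a, which encodes an inhibitor of cyclin-dependent kinases, had 2444, 1309.5, 1711 and 1274 in the mutants, against 136, 219.8, 145.5 and 249.8 in WT. Every mutant was several times above every WT library, and Cdkn1a rose (log2 fold change 3.15, SE 0.26, limma adjusted p = 0.000149). Ccnd2, a D-type cyclin that opens the passage into S phase, had 14982, 5042, 3552 and 4769 in the mutants, against 849.9, 303, 839 and 631 in WT, and rose (log2 fold change 3.30, SE 0.46, adjusted p = 0.00182), with mutant replicate 1 far above the others. Cdkn1c, another kinase inhibitor (0.86, adjusted p = 0.0423), and the cyclin gene Ccne2 (0.27, adjusted p = 0.0432) also rose.

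Among the lower regulators, E2f4, an E2F factor that works mostly as a repressor, had 7872, 7671, 6537 and 7973 in the mutants, against 10222, 10480.2, 11024 and 9672 in WT (log2 fold change -0.46, adjusted p = 0.00379). Tfdp1, the partner with which E2F factors bind DNA, had 6215, 6516, 6197.5 and 6438 in the mutants, against 7708, 7939.8, 7879 and 7686 in WT (log2 fold change -0.30, adjusted p = 0.00353). Both were wholly separate between genotypes. Ccne1 (-0.56, adjusted p = 0.022) and E2f2 (-0.84, adjusted p = 0.041) fell too, whereas the activator E2f1 did not pass (0.086, 95% interval -0.11 to 0.28).

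Mitotic genes, which mark later stages of the cycle, had 2 lower and 1 higher of 28 and a median of -0.11, and the 7.14% lower is again near the 7.55% of all tested genes. The spindle checkpoint kinase gene Bub1b (-0.30, adjusted p = 0.014) and the mitotic kinase gene Plk1 (-0.25, adjusted p = 0.0495) fell, and the cyclin gene Ccnb2 rose (0.21, adjusted p = 0.0195). Genes of the replication checkpoint and of fork repair had 3 lower of 16 (18.8%, against 7.55% of all tested genes) and a median of -0.15. They gave 0 higher with limma, edgeR or DESeq2, against 8.03%, 8.08% and 11.8% of all tested genes. At an unadjusted limma p under 0.05 they also gave 0 higher, against 14.9%. The checkpoint clamp gene Rad1 (-0.33, adjusted p = 0.0221) and the helicase gene Blm (-0.36, adjusted p = 0.0324) fell. The medians of the 4 lists were set beside each other and not tested against that of the 40 members.

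**Figure D5:**
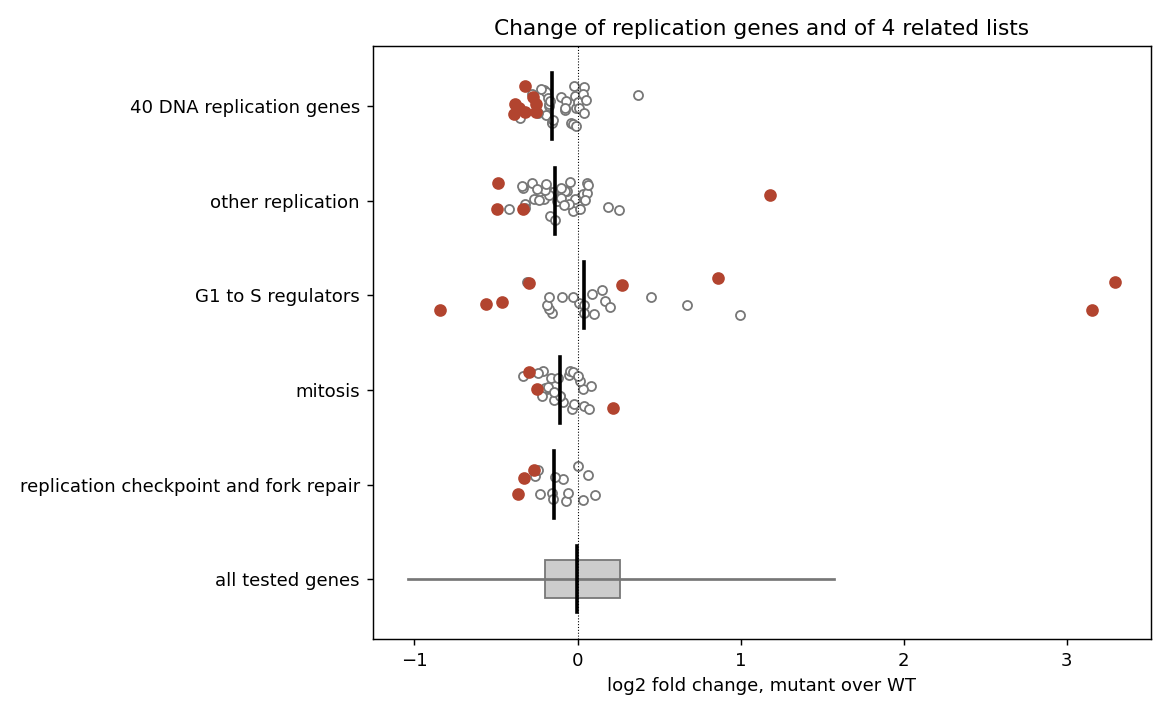
Log2 fold change of mutant over WT for the 40 replication genes and for 4 related lists, a point per gene, filled red where the adjusted p was under 0.05, with a vertical bar at each list's median. The grey box and line at the bottom give the middle 50% and the 5th to 95th percentiles of all tested genes, from -0.20 to 0.26 and from -1.04 to 1.57, and most replication genes lie to the left of 0 but inside the line.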

How the data were processed

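Bulk RNA-seq of 8 whole mouse embryos at embryonic day 6.5 was analysed, 4 Axin1;Axin2 mutant and 4 WT. Per the labels' protocols, 1.9 to 2 ng of column-purified RNA with integrity numbers of 9.7 to 10 was amplified over 12 cycles with SMART-Seq v4, and libraries were made with KAPA Hyper Prep. Per the submitters' processing notes, cutadapt 1.6, STAR 2.5.0a, HTSeq 0.5.3 and DESeq were used with mm10; the annotation and the handling of reads that map to several places were not given in the sources used here, and genes with processed pseudogenes, Pcna among them, are uncertain. The values deposited by the authors are a signal, gene counts divided by a DESeq size factor per library, and in each column 100% of values came out as whole reads within 0.01 of a read. The recovered reads numbered 26615732 to 36778164 per library and are PCR copies without molecular identifiers. Replicates of a genotype differed by more than sampling noise (chi-square per degree of freedom 17.3 to 75.3).

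Genotypes were compared with limma 3.58.1 in R 4.3.3 on log2(scaled count + 1), two-sided, with a trended prior variance and Benjamini-Hochberg adjustment at 0.05 over 15600 genes, those that reached a scaled count of 10 in 4 or more libraries, as all 40 members did. Fold changes are on that scale and understate those of low genes. Recovered reads were tested with the quasi-likelihood test of edgeR 4.0.16 after TMM scaling and with DESeq2 1.42.0 as alternatives; edgeR gave 1261 higher and 1169 lower genes and DESeq2 1832 and 1606. All 40 members were described, and genes of 4 related lists were named where they passed the test, except for a gene that is not reported here, with E2f1 added after its values were seen. The members and lists were chosen with earlier results of these data known. Exon lengths, overlaps and coordinates are from GENCODE M21 (GRCm38), promoters from RefSeq (GRCm38.p6). The fit was tested on simulated data. The replicate numbers are those of the column names.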

Additional observations from a re-analysis of the deposited data

Results flagged for a closer look

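In 4 of the 92 groups of 4 libraries that were examined, the library at an end of the range lay far from the other 3, by a gap beyond Dixon's critical value as a share of the group's whole range; chance gives about 1 group in 20. Orc4 was highest in WT replicate 5 (4052 against 3404 to 3414 in the other WT libraries, a gap of 0.985 of the range), so its difference between genotypes was larger for that library than for the rest. Mcm5 was lowest in mutant replicate 4 (16681 against 19707 to 20246 in the other mutants, a gap of 0.849 of the range), the library that was the lowest of all 8 for 15 members, Mcm5 included. Gins2 was highest in WT replicate 2 (2868 against 2404 to 2471, a gap of 0.856 of the range). Gins3 was lowest in WT replicate 4 (823 against 869 to 874, a gap of 0.916 of the range).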

How the results depend on the processing

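Over the 21 alternatives 0 results changed sign while called, and sign changes of members that passed in neither fit were counted as no change. The 8 lower members became 5 with quantile normalization, 2 without mutant replicates 4 and 5 together, 1 with the 6 libraries that held Y-linked RNA, 0 with the decidua covariate and 2 to 8 when single libraries were left out, of which 2 to 7 were among the main 8, and 0 to 1 rose there, Rrm2 without mutant replicate 2. They were 8 with pseudocounts of 0.5 and 5, without the filter, with a mean of at least 50 and with edgeR, and 12 with median centring, array weights and DESeq2. Pola1 passed in 20 of the 21 alternatives, Rpa2 in 19, Mcm2 in 16, Pola2 in 13, Orc1 and Mcm3 in 11, and Orc3 and Mcm5 in 10. The members' median log2 fold change of -0.15 was -0.24 with median centring, where that of all tested genes was -0.087. The members' median was -0.11 without mutant replicates 4 and 5 together and -0.099 with the decidua covariate. Over all genes, 800 to 1190 were higher and 686 to 1136 lower with single libraries left out, 601 and 719 without mutant replicates 4 and 5 together, 536 and 449 with the 6 libraries that held Y-linked RNA, and 292 and 233 with the decidua covariate. Same-numbered libraries did not deviate together (correlations -0.036, -0.17, -0.19 and -0.047 for replicates 1, 2, 4 and 5). With 4 libraries per genotype and no litter in the labels, this cannot settle whether the numbers mark a pairing. With the replicate number as a block 2 members were lower, and 789 genes lower and 910 higher in all. Over the longest transcripts the highest and lowest MCM genes in WT differed 1.7-fold per kb, against 1.5-fold over exon unions, and 7 members held an E2F match when the 50 bases after the start were left out, against 11. The lowest scaled count of any member was 448, and with no molecular identifiers a count is not a number of independent molecules; the causes of these shifts were not tested.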
